A study of Mus musculus with 14 samples.

Results

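AGO2 PAR-CLIP of mouse bone marrow derived macrophages placed 767 groups of reads in 5′ UTRs in the library labelled knockout (KO). In the library labelled wild type (WT) it placed 600. These 1367 groups, out of 151909 in both libraries, are every group that the deposited tables annotate as lying in a 5′ UTR. A group is a stretch of genome covered by overlapping reads, and each listed group held at least 5 reads. The members carried the names of 704 genes in KO and 539 genes in WT, 1002 genes in all. Of these genes 241 had a member in both libraries, 463 in KO alone and 298 in WT alone.

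KO cells were C57BL/6 macrophages with the floxed ELAVL1f/f alleles and LysM-Cre, and WT cells were C57BL/6 macrophages with ELAVL1f/f alleles and no Cre. Both genotypes thus carried the floxed alleles, and LysM-Cre sits in the Lyz2 gene. Marrow was grown in medium with 20% supernatant of L929 cells, a fibroblast line that secretes CSF1, for 6 days according to the growth protocol and 7 days according to the design text. The data comprised 1 AGO2 PAR-CLIP library per genotype, made with a monoclonal antibody to mouse Ago2, 4 mRNA libraries per genotype, and small RNA libraries of KO numbers 3 and 4 and of WT numbers 1 and 2. The series title places the question on how the RNA-binding protein ELAVL1 bears on miRNA binding in these cells.

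AGO2 is an Argonaute protein that carries a miRNA and is led by the miRNA's seed, bases 2 to 8, to complementary mRNA. Most known functional sites lie in 3′ UTRs, while the 5′ UTR is the stretch that the scanning ribosome crosses and is often rich in G and C. PAR-CLIP uses 4-thiouridine, a uridine analog that crosslinks to bound protein under long-wave UV and is then sequenced as C, so that a T-to-C conversion marks a crosslink. Groups are called converted below where the table lists at least 1 conversion location.

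The sequences that carry the description are given here with coordinates of mouse build mm9 as the tables print them. The largest member in both libraries, in Hoxb4, covers a miRNA, and its capitals mark the mature miR-10a-5p sequence. The next 4 members were converted and hold a seed match, with capitals on the bases complementary to bases 2 to 8 of miR-29a-3p (Slc40a1 and Ibtk) or of miR-27b-3p (Cd36 and Cdkn2c). All are from the KO library.
Hoxb4 (chr11:96178499-96178526, plus strand): aTACCCTGTAGATCCGAATTTGTGtaag
Slc40a1 (chr1:45982197-45982217, minus strand): cttatacTGGTGCTatcttcg
Ibtk (chr9:85637585-85637613, minus strand): ttcccctcctcactccccctTGGTGCTtg
Cd36 (chr5:17334764-17334784, minus strand): aaaacACTGTGAttgtacctg
Cdkn2c (chr4:109338218-109338247, minus strand): aaattctgcctcaaatcaccACTGTGAaca
The mature miRNAs are those of RefSeq (GRCm38.p6), with the seed in capitals.
mmu-miR-10a-5p: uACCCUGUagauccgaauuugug
mmu-miR-29a-3p: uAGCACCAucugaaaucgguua
mmu-miR-27b-3p: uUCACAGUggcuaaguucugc

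A second set shows members with few or no conversions, again as they stand in the KO library. They are shown for their many reads in one of the libraries (Camsap1l1 and Fmnl2 in WT, the others except Jag1 in KO) or for a shared run of bases. In Fam83f the capitals mark the bases that the shorter WT group also covers. In Pigo and Itgbl1 they mark a run of 11 bases that both groups hold, and in Fmnl2 and Jag1 a shared run of 14 bases.
Fam83f (chr15:80501782-80501802, plus strand): tACACAGTCCGACGATCtagc
Gpr19 (chr6:134847867-134847884, minus strand): ggtggccccgtcggcccc
Camsap1l1 (chr1:138242424-138242438, minus strand): cagcgattctgacgt
Pigo (chr4:43038156-43038173, minus strand): CCCAGAACCTGaatcggt
Itgbl1 (chr14:124059387-124059404, plus strand): ggaggagCCCAGAACCTG
Fmnl2 (chr2:52717071-52717089, plus strand): aaCCGGGACGCGGCGGagg
Jag1 (chr2:136942083-136942101, minus strand): agCCGGGACGCGGCGGccg

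The tables held 6445262 reads in 85458 groups in KO and 6287870 reads in 66451 groups in WT. The totals cover listed groups alone, so they are not library depths. With 1 PAR-CLIP library per genotype no test between genotypes was possible for any PAR-CLIP value. All intervals are exact Clopper-Pearson intervals at 95% and cover counting error only, since reads carry no molecular identifiers and groups of 1 library share that library. Total counts of the mRNA libraries ran from 8160789 to 25030262. Elavl1 mRNA (ENSMUSG00000040028) had 76.8, 64.1, 64.9 and 72.4 CPM in the KO libraries, against 65.9, 61.2, 62.6 and 64.2 CPM in the WT libraries, so its level over the whole gene was not lower in KO. Lyz2 averaged 5067 ± 1004 CPM in KO and 12428 ± 2555 CPM in WT (SD, n = 4 each). It was called lower with the replicate number as a block (log2 fold change -1.29, edgeR adjusted p = 0.000472). Without the block edgeR called 0 of all 14019 genes tested, so Lyz2 was not called there. All 10 macrophage markers were present, with a summed level of 3729 to 6811 RPKM over KO libraries and 8105 to 12891 RPKM over WT libraries, with Lyz2 the highest. Lyz2, the gene that holds LysM-Cre, averaged 5973 RPKM over all libraries and so made up most of this sum. The lower sum in KO therefore cannot be read as a lower level of the other markers. Summed markers of B cells stayed at or below 1.62 RPKM and those of stromal cells at or below 6.11 RPKM in every library, those of T cells, mainly Cd4, at or below 22.2 RPKM those of neutrophils at or below 23.1 RPKM, and the 2 erythroid markers in the table at or below 0.514 RPKM. Neither Elavl1 nor Lyz2 had a 5′ UTR group.

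Members made up 0.898% of all groups in KO (interval 0.835 to 0.963) and 0.903% in WT (0.832 to 0.978). Their share of group reads was 0.869% in KO (55986 reads) and 0.600% in WT (37734 reads). Without the Hoxb4 groups the shares were 0.571% in KO and 0.363% in WT. Without Hoxb4, Fam83f and Gpr19 they were 0.313% in KO and 0.291% in WT. The number of groups thus took the same share in both genotypes within counting error, and most of the difference in read share lay in 3 genes.

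Reads were concentrated on few genes. Hoxb4, a homeobox transcription factor gene, held 19286 reads in KO and 14985 in WT, 34.4% and 39.7% of all member reads. Nearly all of them lay in the group shown above, with 19277 reads in KO and 14958 in WT. It spans the same 28 bases in both libraries, including the whole mature miR-10a-5p, whose gene lies within the Hox cluster beside Hoxb4. A second, smaller Hoxb4 group with 9 reads in KO and 27 in WT lies downstream and matches the other arm of that hairpin, with the whole mature miR-10a-3p covered in WT. The large group had 602 conversion events in KO and 448 in WT, and over both Hoxb4 groups there were 3.17 events per 100 reads in KO and 3.06 in WT. In the small RNA libraries miR-10a-5p ranked 28 of 485 miRNAs, at 0.375% and 0.356% of miRNA counts in KO and 0.248% and 0.251% in WT. The KO libraries are numbers 3 and 4 and the WT libraries numbers 1 and 2, so genotype and number cannot be told apart in these values. A column header in the deposited values of KO 4 names KO 2, and the number of the sample record was used. Hoxb4 mRNA stood at 3.33 ± 0.99 RPKM in KO and 3.01 ± 0.76 RPKM in WT (SD, n = 4 each). The members thus include miRNA reads that carry the name of a protein-coding gene. A miRNA hairpin sequence of RefSeq was matched by groups of only 3 other genes, Glul, Krcc1 and Dnaja1, each with at most 45 reads.

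Fam83f was the gene with the next most reads, 9937 in KO and 2533 in WT. Its group had 4 conversion events in KO and none in WT. The bases that both libraries cover end in the same letters as the 5′ adapter of Illumina small RNA libraries, which is general knowledge and in none of the files, and the part of adapter in these reads was not tested. Gpr19, which encodes an orphan G protein-coupled receptor, held 6686 reads in KO and 1979 in WT with no conversion event in either. Its mRNA was scarce, at 0.255 ± 0.072 RPKM in KO and 0.375 ± 0.040 RPKM in WT (SD, n = 4 each), and the gene had no 3′ UTR group. Hoxb4, Fam83f and Gpr19 together held 64.1% of member reads in KO and 51.7% in WT. Below them the largest genes in KO were Dyrk1b, a protein kinase, with 832 reads, Pigo, an enzyme of GPI anchor synthesis, with 796, and Stx7, a SNARE of late endosomes, with 656. In WT they were Camsap1l1 (now Camsap2), which binds microtubule minus ends, with 1969 reads, Gas2l3, a cytoskeletal linker, with 431, and Slc40a1 with 425. Of the 12 genes with most reads in KO, Hoxb4, Fam83f, Stx7, Slc40a1 and Atp6v1a had a converted group. In WT these were Hoxb4, Slc40a1, BC005537 and Atp6v1a.

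T-to-C conversions were present in 294 of 767 members in KO, 38.3% (34.9 to 41.9), and in 341 of 600 in WT, 56.8% (52.8 to 60.8). For 3′ UTR groups the shares were 81.6% in KO (81.0 to 82.2) and 86.9% in WT (86.4 to 87.3), and for coding groups 68.8% in KO (67.8 to 69.7) and 77.6% in WT (76.8 to 78.4). In each library the interval of 5′ UTR groups lay below those of 3′ UTR and coding groups. Intron and intergenic groups were lower still, at 26.5% and 20.9% in KO and 39.7% and 31.6% in WT. The share over all groups was lower in KO too, 40.0% (39.6 to 40.3) against 58.9% in WT (58.5 to 59.3). The lower share in KO was thus also present over the whole tables. In most converted members the events equalled the reads, though not in Hoxb4 and Fam83f, which hold most reads of converted members in KO. In 82.3% of converted members in KO (77.5 to 86.5) and 81.5% in WT (77.0 to 85.5) they were equal, close to the 80.5% and 78.3% of converted 3′ UTR groups. A single conversion location was listed for 91.8% of converted members in KO and 88.3% in WT.

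Converted and unconverted members differed in length. The median length was 22 bases for converted and 17 for unconverted members in KO, and 24 and 18 bases in WT. None of the 157 KO and 79 WT members of 13 to 15 bases was converted, which allows shares of up to 2.32% and 4.56%, and none of the 87 KO and 34 WT 3′ UTR groups of that length was converted either. At 16 to 18 bases 20.8% of members were converted in KO (15.9 to 26.4) and 20.8% in WT (12.4 to 31.5). At 22 to 24 bases the shares were 66.0% in KO (56.2 to 74.96) and 74.5% in WT (66.8 to 81.2), below the 85.5% and 87.1% of 3′ UTR groups of that length. Members of at most 18 bases made up 53.1% of the KO set and 26.0% of the WT set. Such short groups made up more of the intron groups, 70.5% in KO and 47.2% in WT. Of the intergenic groups they made up 79.1% and 60.7%. Among members of at least 19 bases the converted share was 67.2% in KO and 73.2% in WT. The intervals of KO and WT overlapped in each length class, while those of the overall shares did not.

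**Figure D1:**
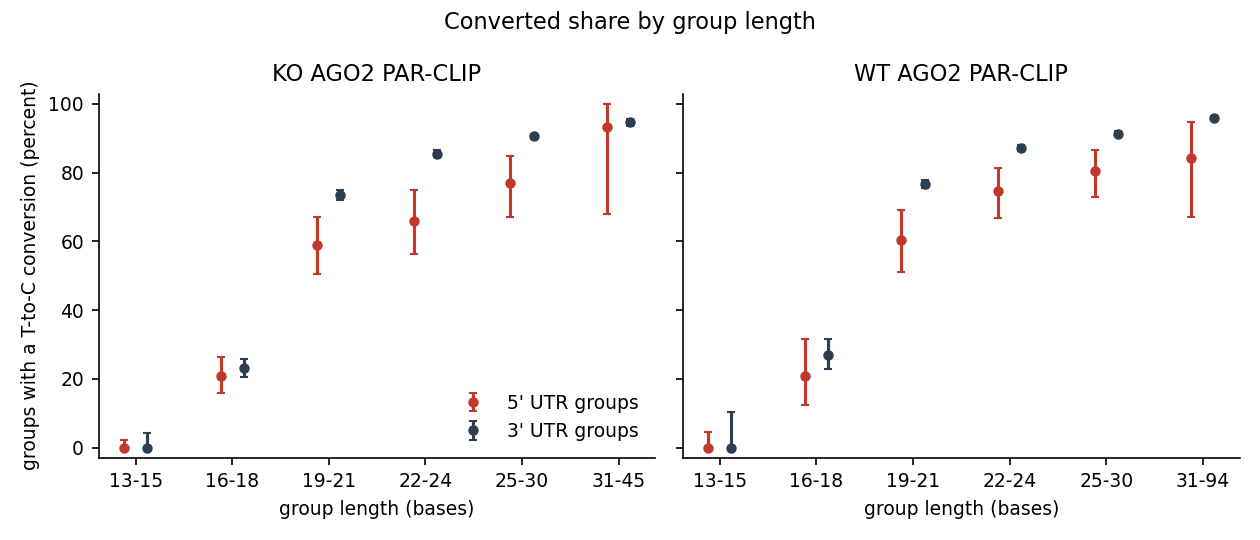
Share of groups with a T-to-C conversion (vertical axis, percent) by group length in bases (horizontal axis), for 5′ UTR groups (red) and 3′ UTR groups (dark blue) in KO (left) and WT (right). Bars are exact 95% intervals. The share is 0% at 13 to 15 bases in both classes and in both libraries, and at 19 to 30 bases the 5′ UTR points lie below the 3′ UTR points.

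Base composition split the members along the same line. The median GC content was 64.7% in KO and 55.6% in WT. Converted members had a median of 50% in KO and 45.8% in WT, unconverted members 70.6% in KO and 71.4% in WT. Converted 3′ UTR groups stood at 37.8% in KO and 37.1% in WT, and converted coding groups at 44.8% and 44%. CpG dinucleotides numbered 4.77 per 100 bases in converted members and 12.1 in unconverted members of KO, and 3.14 and 11.7 in those of WT, against 0.865 in KO and 0.790 in WT over 3′ UTR groups. The median T content was 30% in converted and 15% in unconverted members of KO, and 31.8% and 15.4% in those of WT. Since a conversion needs a T, composition and conversion are not independent, though 36 members in KO and 13 in WT held no T at all and could not have been converted. The last base was G in 73.1% of converted and 48.8% of unconverted members in KO, and in 75.4% and 49.4% in WT. For 3′ UTR groups it was G in 76.8% in KO and 78.9% in WT. RNase T1, a nuclease of many PAR-CLIP protocols, cuts after G. The nuclease used is not given in the sources used here.

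**Figure D2:**
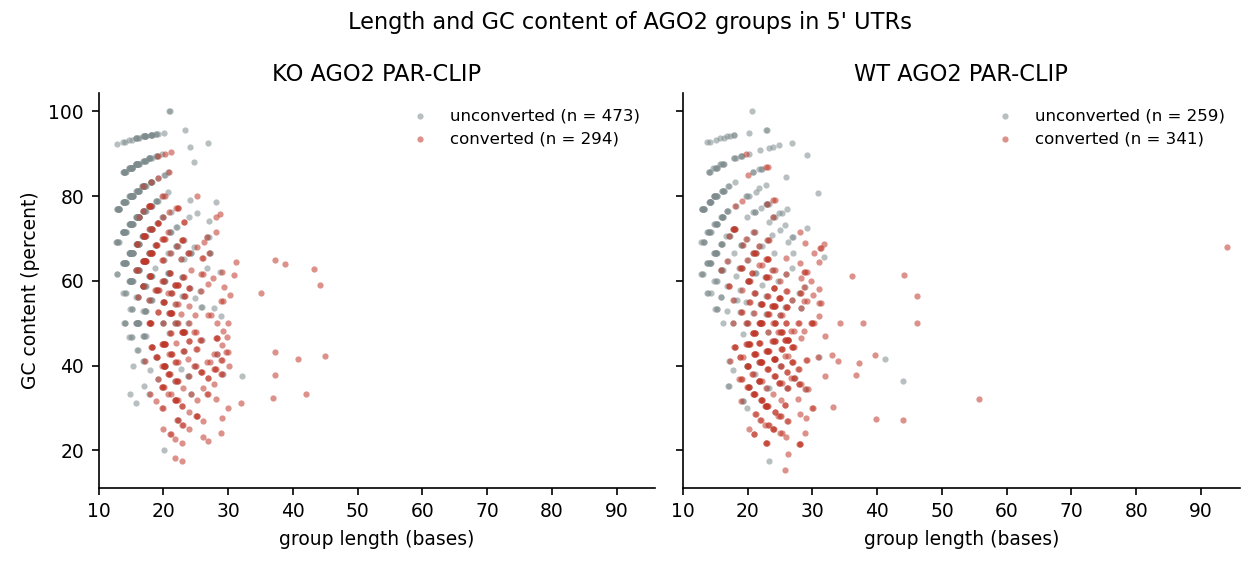
Length in bases (horizontal axis, with a small random shift) and GC content in percent (vertical axis) of each 5′ UTR group in KO (left) and WT (right). Unconverted groups (grey) lie mostly at short length and high GC, with medians of 70.6% GC in KO and 71.4% in WT, and converted groups (red) at 50% and 45.8%.

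Some members shared sequence although they lie at different places. A run of 12 bases was shared with a member of another gene by 23 of 473 unconverted members in KO, 4.86% (3.11 to 7.21), and by 7 of 294 converted members, 2.38% (0.963 to 4.84). In WT it was 19 of 259 unconverted members, 7.34% (4.47 to 11.2), and 14 of 341 converted members, 4.11% (2.26 to 6.79). The share was higher among unconverted members in both libraries, but the intervals overlap and the difference was not tested. Converted members were also longer and so offer more runs of 12 bases to share. The pair shown above from Fmnl2, a formin, and Jag1, a Notch ligand, is an example of such a run, at places far apart on chromosome 2 and on opposite strands. How reads that map to several places were assigned is not given in the sources used here.

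A minority of members could be placed next to an annotated transcription start. The full sequence of 135 members in KO, 17.6% (14.97 to 20.5), and of 78 in WT, 13% (10.4 to 15.96), was found in the RefSeq promoter window of its own gene (GRCm38.p6, 250 bases before to 50 after the start). Of these, 70 in KO and 40 in WT began at or after the RefSeq start, and the others began before it. Converted members were found there in 13.9% of cases in KO (10.2 to 18.4) and 9.09% in WT (6.26 to 12.7), unconverted members in 19.9% (16.4 to 23.8) and 18.1% (13.6 to 23.4).

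Apart from Hoxb4 and Fam83f, the genes with most reads in converted members included Stx7, Slc40a1, Atp6v1a and BC005537. Slc40a1 encodes ferroportin, the cell's iron exporter, and its mRNA is known to carry an iron-responsive element in the 5′ UTR. It had a pair of neighbouring members in each library, separated by 1 base. The 3′ one of the pair held 352 reads in KO (330 events) and 332 in WT (308 events), and the other, with the miR-29a-3p seed match, 119 reads in KO (86.6 events per 100 reads) and 93 in WT (37.6 events per 100 reads). Stx7 had 656 reads in KO with 653 events and no overlapping group in WT, where a group of fewer than 5 reads would not be listed. Atp6v1a, the catalytic A subunit of the vacuolar proton pump, had members of 256 and 37 reads in KO and of 286 and 44 reads in WT. Tulp4, a tubby-like gene, had 263 reads in KO (230 events) and 246 in WT (246 events). BC005537 stood out in number, with 9 members in KO, 8 of them converted, and 10 in WT, all converted. Among members of at least 20 reads, the 6 taken by most events per read all had as many events as reads, and ties were ordered by reads. In KO they lay in Efemp2, an extracellular matrix gene (108 reads), Cd36, a scavenger receptor for oxidised lipid (92), Suv420h1 (now Kmt5b), a histone methyltransferase (76), Ubr3, a ubiquitin ligase (68), Kcnj2, an inward rectifier potassium channel (66), and Socs4 (65). In WT they lay in Tulp4 (246), Kcnj2 (168), 4922501C03Rik (130), Ibtk (93), Skil, a repressor of TGF-beta signalling (89), and Runx1, a blood cell transcription factor (77).

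Seed matches were searched as 7mers complementary to bases 2 to 8 of the 10 most abundant miRNAs with a RefSeq entry, on the strand of the group. They occurred in 14 of 294 converted members in KO, 4.76% (2.63 to 7.86), and in 17 of 341 in WT, 4.99% (2.93 to 7.86). Over converted 3′ UTR groups weighted to the same lengths the share was 3.74% in KO and 3.64% in WT, and over coding groups 4.85% and 5.67%, all within those intervals. Unconverted members held one in 6 of 473 cases in KO, 1.27% (0.467 to 2.74), and in 9 of 259 in WT, 3.47% (1.601 to 6.49). Unconverted members were also shorter, and the part of length in this was not tested. By family, ACTGTGA of miR-27a-3p and miR-27b-3p was held by 7 converted members in KO, among them Cant1, Cd36, Cd72, Cdkn2c, Herc3 and Usp48, and by 5 in WT, among them Agmo, Cd36, Herc3 and Mpeg1. CTGAGCC of miR-24-3p was held by 4 in KO (Bak1, Irg1, Myo1f and Snrpb) and by 9 in WT, among them Bak1, Myo1f, Snrpb and Fth1. ATAAGCT of miR-21a-5p, the most abundant miRNA at 47.1% of counts on average, was held by none of the 294 in KO and none of the 341 in WT. That allows up to 1.25% and 1.08%, against 0.422% of converted 3′ UTR groups in KO, so this number of members could not show a difference. TGGTGCT of miR-29a-3p, outside the 10 most abundant, was held by 5 converted members in KO and 9 in WT, among them Slc40a1, Ibtk, Mtmr6 and Fam53c in both. As shares, converted members and converted 3′ UTR groups stood at 2.38% and 2.12% in KO and 1.47% and 1.85% in WT for ACTGTGA. For CTGAGCC they stood at 1.36% and 1.04% in KO and 2.64% (1.21 to 4.95) and 1.01% in WT. For TGGTGCT they were 1.70% and 1.98% in KO and 2.64% and 1.75% in WT. The 3′ UTR share lay outside the interval of members for CTGAGCC in WT alone, and lengths were not matched. A match is a match of letters and no proof of a site.

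Overlap between genotypes was counted from 1 shared base on the same strand. Of the KO members, 29.99% (26.8 to 33.4) overlapped a group of the WT library, and of the WT members 38.0% (34.1 to 42.0) overlapped a KO group. Over all groups the shares were 32.0% in KO and 41.0% in WT, both inside the intervals of the members, and over 3′ UTR groups they were 52.1% in KO (51.4 to 52.9) and 40.7% in WT (40.0 to 41.3). The overlaps formed 226 pairs of members, 124 of them with the same start and end. Conversion went together in a pair: 95 pairs were converted in both libraries and 111 in neither, while 7 were converted in KO alone and 13 in WT alone. The number of reads was less alike, with a Spearman rho of 0.55 across the pairs, which share the position but not the library. Unpaired members were small, with a median of 11 reads in KO and 13 in WT, against 25 and 21 for overlapping ones. Of the 30 KO and 33 WT members of at least 100 reads, 1 in each library had no counterpart, Stx7 in KO and Csnk1a1, the gene of casein kinase 1 alpha, with 109 unconverted reads in WT.

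The ratio of KO to WT reads, each as RPM (reads scaled to a common total of reads in groups), had a median of 1.17 over the 226 pairs. It was 0.915 over the 95 pairs converted in both and 1.43 over the 111 converted in neither, against 0.848 over 3′ UTR pairs and 1.06 over coding pairs. The widest ratios fell on unconverted or barely converted members. Camsap1l1 had 28 reads in KO and 1959 in WT over the same 15 bases, a ratio of 0.0139 (0.00924 to 0.0202). Cstf1, an RNA 3′ end processing factor, had 12 reads in KO and 153 in WT. Cnpy1 had 8 and 114 reads and Fmnl2 8 and 104. At the other end Cpsf7, also a 3′ end processing factor, had 224 reads in KO and 22 in WT, a ratio of 9.93 (6.40 to 16.2), Sap30l had 97 and 11, Caln1 43 and 5, Rnf24 42 and 5, and Jag1 56 and 7. Among the pairs named here a single library of a single pair listed a conversion, 1 event in 114 reads for Cnpy1 in WT. Slc40a1 kept nearly equal reads, 54.6 RPM in KO and 52.8 RPM in WT for its larger member. The miR-27 matching member of Cd36 held 92 reads in KO and 36 in WT, and that of Cdkn2c, a cell cycle inhibitor, 72 reads in KO and 178 in WT, where the group ends within the seed match.

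**Figure D3:**
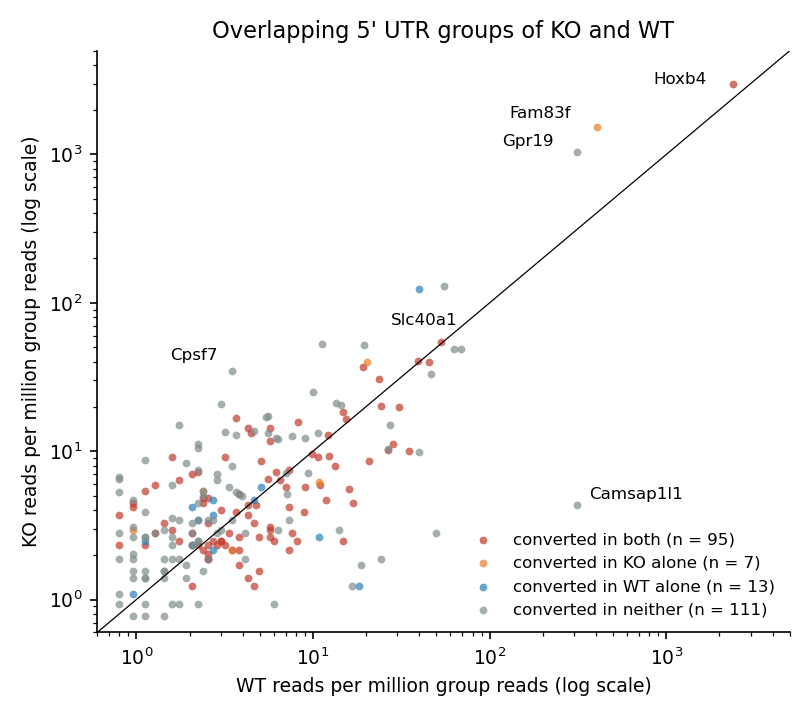
RPM (reads scaled to a common total of reads in groups) for each of the 226 pairs of overlapping 5′ UTR groups, KO on the vertical and WT on the horizontal axis, both on log scales, with the line of equality. Pairs converted in both libraries (red) have a median KO to WT ratio of 0.915 and pairs converted in neither (grey) one of 1.43. Camsap1l1 lies far below the line and Fam83f, Gpr19 and Cpsf7 lie above it.

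Many of the genes with a 5′ UTR group also held a 3′ UTR group. In KO it was 369 of 704 genes, 52.4% (48.7 to 56.2), and in WT 368 of 539, 68.3% (64.2 to 72.2). With a converted member the shares were 64.3% in KO (58.2 to 70.04) and 73.4% in WT (68.1 to 78.3), and with unconverted members alone 45.2% (40.5 to 50) and 61.5% (54.98 to 67.8). Among genes of at least 1 RPKM they drew together, to 69.4% with a converted member and 59.4% without in KO (63.0 to 75.3 and 53.7 to 64.9), and to 75.7% and 75.6% in WT. Over all genes named for any group at that level the share was 67.9% in KO and 74.2% in WT. That set includes genes named only for a 3′ UTR group, which raises its share by construction. For all genes with a member at that level it was 63.6% in KO and 75.7% in WT. Over the whole mRNA table, named or not, 37.3% of genes of 1 to 10 RPKM held a 3′ UTR group in KO and 40.8% in WT. At 10 to 100 RPKM it was 47.0% and 51.2%, and at 100 RPKM or more 44.0% and 48.1%. Kcnj2 had 18 and 27 3′ UTR groups in KO and WT and Gas2l3 17 and 18, whereas Gpr19, Tulp4 and Efemp2 had none in either library.

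Genes with members were expressed above the middle of the mRNA table. The deposited RPKM values, which are per length and so allow levels of genes to be compared, had a median of 9.42 over genes with a converted member and 5.43 over genes with unconverted members alone in KO, and of 11.4 and 6.20 in WT. The median over all 21444 genes was 1.51 in KO and 1.53 in WT. Genes with a 3′ UTR group and no 5′ UTR group stood at 7.39 in KO and 7.49 in WT. Taking both libraries' members together, the median level of genes with a converted member was 7.90 to 10.05 RPKM over the 4 KO mRNA libraries and 8.56 to 9.92 over the 4 WT libraries. Genes with unconverted members alone stood at 5.10 to 5.56 and 4.96 to 5.53, without overlap with those values in any library. The share of genes with a converted member climbed with the level, to 4.79% (3.21 to 6.86) of genes of 100 RPKM or more in KO and 6.84% (4.91 to 9.23) in WT, against 0.245% and 0.236% of genes under 1 RPKM. Unconverted members alone were found at 3.25% (1.97 to 5.03) and 1.75% (0.844 to 3.20) of genes of 100 RPKM or more, against 1.002% and 0.431% under 1 RPKM. The number of member reads of a gene said little about its mRNA level. Across genes the Spearman rho of reads and RPKM was 0.13 in KO (661 genes) and 0.12 in WT (517 genes). Fth1 averaged 19634 ± 3302 RPKM in KO and 18993 ± 4422 RPKM in WT (SD, n = 4 each), yet it had members of 49 and 51 reads in KO and 1 member of 84 reads in WT.

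**Figure D4:**
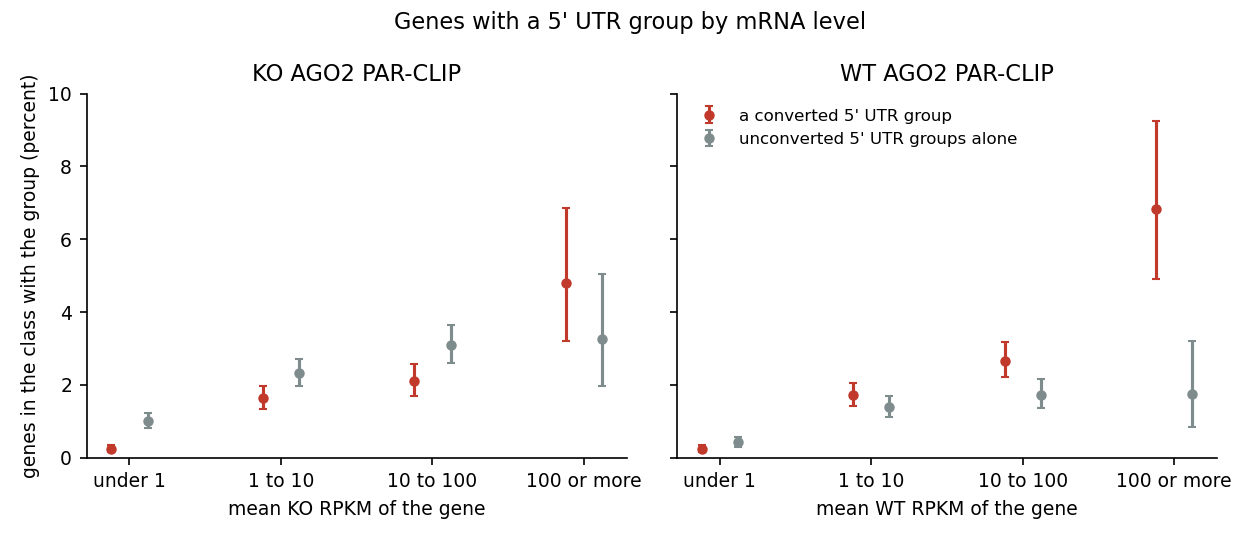
Share of genes (vertical axis, percent) that held a converted 5′ UTR group (red) or unconverted 5′ UTR groups alone (grey), by the gene's mean mRNA level in RPKM of the same genotype (horizontal axis), in KO (left) and WT (right). Bars are exact 95% intervals. The converted share is 4.79% in KO and 6.84% in WT at 100 RPKM or more.

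Lists of genes were set beside the members. Those of iron-responsive, upstream open reading frame and terminal oligopyrimidine mRNAs rest on known regulation through the 5′ UTR. The list of immediate early genes does not. The iron-responsive list has 6 genes, and 3 of them, Slc40a1 and the ferritin genes Fth1 and Ftl1, had a converted member in both libraries. Over the whole mRNA table, 661 of 21444 genes had a member in KO and 517 in WT. At 100 RPKM or more, where both ferritin genes stood, the share with a member was 8.05% in KO and 8.60% in WT. At 10 to 100 RPKM, where Slc40a1 stood, it was 5.19% and 4.40%. These shares count any member, converted or not. The converted WT group of Fth1 (chr19:10057235-10057328, plus strand) is the longest member, with 84 reads and 24 events, and opens as shown, with its first 5 bases in capitals.
Fth1: AGTGCttgaacggaacccggtgctcgaccc
Iron-responsive elements carry the loop CAGUGN. The base before the group is in none of the files, so whether the group begins inside that loop was not tested. Of 13 genes with known upstream open reading frames, 1 (Azin1, an antizyme inhibitor) had a member, in WT, and none had one in KO. Of 90 terminal oligopyrimidine genes in the mRNA table, mostly ribosomal protein genes, 4 had a member in KO, of which 2 were converted (Pabpc1 and Rpl14). In WT 4 had a member, none converted. The mean KO level of these genes with a member ran from 2.63 RPKM for Rpl21 to 477 RPKM for Eef1b2. Of 25 immediate early genes, 5 had a member in KO, 2 of them converted (Btg1 and Dusp2), and 6 in WT, 5 of them converted (Btg1, Dusp1, Egr2, Fos and Mcl1). Far more of these 25 genes held a 3′ UTR group, 19 in KO and 18 in WT. The same was true over the mRNA table. At 1 to 10 RPKM 37.3% of genes held a 3′ UTR group in KO and 40.8% in WT, against 3.95% and 3.10% with a member. At 10 to 100 RPKM a 3′ UTR group was held by 47.0% and 51.2%. The ribosomal protein genes have near-identical pseudogenes, so their counts are uncertain. In the mRNA test below 0 genes of any list were called, with or without the replicate block. The median log2 fold change was -0.02 over 5 iron-responsive genes tested, -0.09 over 13 genes with upstream open reading frames, 0.07 over 88 terminal oligopyrimidine genes and 0.11 over 25 immediate early genes, against -0.0017 over all genes tested.

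None of the genes with members passed the mRNA test between genotypes. Of the 952 genes found among the measured mRNAs, 871 passed the filter on low counts, and edgeR's quasi-likelihood test called 0 of these 871 at an adjusted p under 0.05, as it called 0% of all 14019 genes tested. Unadjusted p under 0.05 was reached by 5 of the 871, or 0.574%, against 0.578% of all genes. This fit did not use the pairing of same-numbered libraries, which deviated together. DESeq2 called 0 of the 871, against 0.0214% of all genes, and 7 of them had an unadjusted p under 0.05, against 0.778% of all genes. With the replicate number as a block edgeR again called 0 of the 871, against 0.0357% of all genes (0.00713% higher and 0.0285% lower in KO), and 99 of them, 11.4%, had an unadjusted p under 0.05, against 9.42% of all genes. The median log2 fold change of KO over WT was -0.0026 over the 871 genes, with 428 higher and 443 lower in KO, and -0.0017 over all genes tested. Genes with a converted member had a median of -0.0051 (438 genes) and those with unconverted members alone one of 0.0015 (433 genes). Genes with members in KO alone had a median of -0.0042 and those with members in WT alone one of 0.0040. None of these medians lay farther from 0 than the SD of 0.037 between libraries, which was computed for the median over all these genes. In these bulk samples fewer cells of a type and less RNA per cell cannot be told apart. The design text speaks of biological replicates of the mRNA libraries, but no label says that the numbers mark separate mice, so p-values reflect spread between samples that may be technical.

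The 10 genes with members of smallest p in the edgeR fit without the replicate block are given for their values, all at an adjusted p of 0.9999 in that fit. A choice by p on the same values favours groups without overlap. The share of all genes without overlap is not given here. With the block the edgeR adjusted p of these 10 genes ran from 0.0608 for Dnajb4 to 0.534 for Pdzd2. The choice would differ with the block. Cd36 (edgeR adjusted p 0.0879 with the block) and Jag1 (0.126) then lay below all of the 10 but Dnajb4. Ptgr2, a prostaglandin reductase, had 20.3, 23.5, 20.9 and 20.3 CPM in KO, against 26.9, 25.1, 41.2 and 27.2 CPM in WT (log2 fold change -0.50, SE 0.19). All 4 KO values lay below all 4 WT values, and WT 3 stood apart, without which the log2 fold change was -0.31. Its single member, in WT, was unconverted with 6 reads. Csf3r, the receptor of the granulocyte growth factor G-CSF, had 112, 115, 112 and 109 CPM in KO, against 98.0, 99.8, 73.9 and 73.3 CPM in WT (log2 fold change 0.38, SE 0.15). The groups did not overlap, and the log2 fold change was 0.20 within numbers 1 and 2 and 0.58 within numbers 3 and 4. Irf7, a transcription factor of the interferon response, had 253, 197, 234 and 202 CPM in KO, against 191, 190, 84.6 and 122 CPM in WT (log2 fold change 0.59, SE 0.26), again without overlap. Within numbers 1 and 2 the log2 fold change of Irf7 was 0.23 and within numbers 3 and 4 it was 1.07. Irg1 (now Acod1), which makes itaconate in activated macrophages, had 91.8, 34.1, 55.9 and 58.3 CPM in KO, against 105, 84.4, 82.0 and 79.3 CPM in WT (log2 fold change -0.55, SE 0.27), with KO 1 above 3 of the WT libraries. Its log2 fold change was -0.83 without KO 1 and -0.36 without KO 2. Irf7 had a converted member of 29 reads and an unconverted one of 13 reads in KO, Irg1 had a converted one of 35 reads in KO, and neither gene had a member in WT. The other 6 genes of smallest p, by their log2 fold change, were Slc25a35 at 0.55 (no overlap between the groups), Ctnnd2 at 1.18 and Pdzd2 at 0.80, higher in KO, and Ncs1 at -0.62, Dnajb4 at -0.74 (-0.45 without WT 3) and Pir at -1.01, lower in KO.

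**Figure D5:**
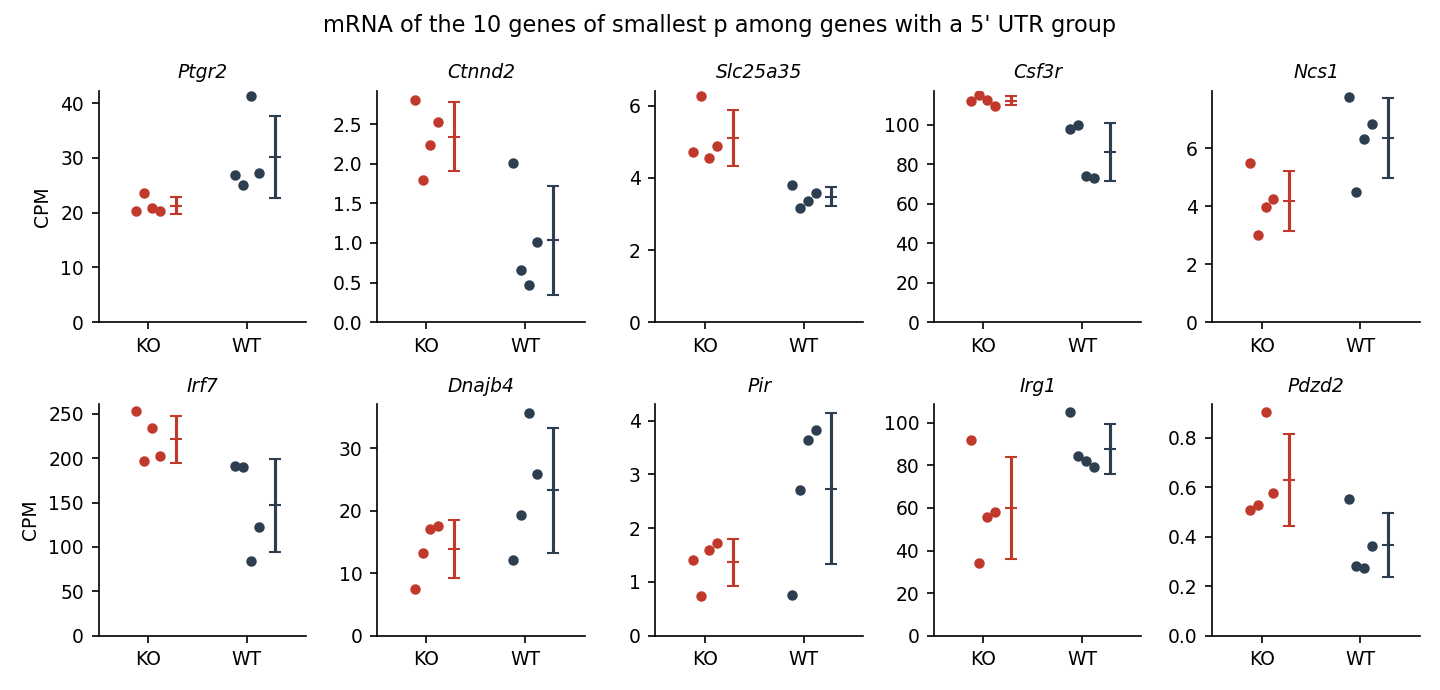
CPM (vertical axes, from 0) of the 10 genes of smallest p among genes with a 5′ UTR group, in the 4 KO libraries (red, left) and the 4 WT libraries (dark blue, right), with mean and SD beside the points. Each point is a library. Ptgr2, Slc25a35, Csf3r and Irf7 show no overlap between the groups, and all 10 genes are at an edgeR adjusted p of 0.9999 without the replicate block. The genes were chosen for small p on these values, which favours groups without overlap.

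The mRNA of Slc40a1, Stx7 and Cd36 overlapped between the genotypes, and that of Gpr19 did not. Slc40a1 had 14.9, 63.7, 53.3 and 53.5 CPM in KO, against 11.7, 41.8, 91.7 and 57.6 CPM in WT, with number 1 lowest in both genotypes. Stx7 had 124, 113, 152 and 147 CPM in KO, against 135, 105, 156 and 134 CPM in WT, while its member was listed in KO alone. Cd36 had 232, 254, 811 and 677 CPM in KO, against 340, 288, 1246 and 1161 CPM in WT, lower in KO in each number and spread over numbers more than over genotypes. Its adjusted p was 0.9999 without and 0.0879 with the replicate block in edgeR. Gpr19, whose member held 6677 reads in KO and 1973 in WT, had 1.27, 2.63, 2.11 and 2.11 CPM in KO, against 2.84, 3.55, 2.82 and 2.74 CPM in WT (log2 fold change -0.53, SE 0.28, edgeR adjusted p = 0.9999). All 4 KO values lay below the 4 WT values, while its member held more reads in KO. How many of all genes show such a separation is not given here.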

How the data were processed

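Deposited values were, per the file headers, counts and RPKM of each Ensembl gene in every mRNA library, counts of mature miRNAs, and the position, sequence, read count and conversion counts of AGO2 groups. Per the submitters' processing notes, CASAVA 1.8.2, Bowtie 0.12.7 and build mm9 were used. For group calling, gene counting and strand the method was not given in the sources used here. Whether coordinates start at 0 or 1 could not be settled.

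Deposited counts were tested with edgeR 4.0.16 in R 4.3.3 (TMM, filterByExpr, genotype alone, Benjamini-Hochberg threshold 0.05), with DESeq2 1.42.0, other filters, left-out libraries and a replicate block as alternatives. Same-numbered libraries deviated together (correlations 0.770, 0.810, 0.745 and 0.801, all over the limit of 0.1 set for pairing). The numbers were used as pairs only in the fit with the replicate block, and the main fit took genotype alone. Numbers 3 and 4 are not told apart (KO 3 with WT 4 0.832, KO 4 with WT 3 0.764). CPM is computed here with TMM. Groups were compared in Python 3.11.15 (pandas 2.3.3, scipy 1.17.1). Of 1002 member genes 952 were matched to the mRNA table by symbol or synonym. Promoter and miRNA sequences are RefSeq's. Abundant miRNAs with no RefSeq match (3) were skipped.

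Named were, per library, the 12 genes with most reads and the 6 groups of at least 20 reads with most events per read, the 5 widest pair ratios each way with at least 20 reads in one library, groups of at least 100 reads with no overlap, the 10 genes of smallest p, and list members. Others named, such as Cdkn2c, were chosen for their sequence after values were seen. Members and lists were chosen with earlier results of these data known. Some items that these rules name are not reported here.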

Additional observations from a re-analysis of the deposited data

Results flagged for a closer look

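Among the 64 named genes found in the mRNA table, 1 of the 4 libraries of a genotype stood far from the other 3 in 5 of 124 groups of libraries, and chance gives about 1 such flag in 20 groups. Gpr19 had 3.55 CPM in WT 2, against 2.74 to 2.84 CPM in the other WT libraries. Pigo had 28.4 CPM in KO 2, against 16.5 to 17.6 CPM in the other KO libraries. Cpsf7 had 63.8 CPM in KO 2, against 73.2 to 74.4 CPM in the others. Ptgr2 had 41.2 CPM in WT 3, against 25.1 to 27.2 CPM in the others, and Rpl14 had 187 CPM in WT 2, against 160 to 163 CPM in the others.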

How the results depend on the processing

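The count of 0 member genes called held under every alternative run, replicate block included, and without each library in turn (0 to 0). The median log2 fold change of member genes, -0.0026, was 0.0005 with the replicate block and -0.02 to 0.01 without single libraries. Numbers 1 and 2 alone, an alternative chosen after seeing the data, gave -0.0088 and numbers 3 and 4 alone -0.0028. The 10 genes given for their small p kept direction and side of the threshold in all 139 combinations of gene and setting. They were chosen for small p on the same values and stood far from the threshold. This outcome was therefore largely fixed by the choice. Values that moved by over 1.5 times without 1 library stand in the text. With numbers 1 and 2 alone Ptgr2 was at -0.25 and Ctnnd2 at 0.72.

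Groups of at least 20 reads alone gave 0.793% of groups in 5′ UTRs in KO, converted shares of 52.1% in KO and 64.0% in WT, overlaps of 42.2% and 46.6%, a 3′ UTR share of 52.2% in WT, median GC of 59.1% and 52%, seed matches in 6.35% in WT, and median wild type levels of 9.05 and 10.1 RPKM (7.21 and 8.91 over all). Converted groups alone gave an overlap of 28.2% in WT, a 3′ UTR share of 59.4% in KO, median GC of 50% in KO and 45.8% in WT, seed matches in 4.76% in KO, and levels of 9.40 and 11.4 RPKM. Over all members, where 7mers gave 2.61% in KO and 4.33% in WT, seed shares were 5.48% in KO and 9.67% in WT with 6mers, 0.913% and 1.5% with 8mers, and 4.69% and 7.5% with 30 miRNAs. In CPM the levels were 44.9 and 54.96, a change of unit, and without single WT libraries 6.97 to 7.22 and 8.46 to 8.87 RPKM. Chosen after seeing the data, groups of at least 19 bases gave converted shares of 67.2% and 73.2% and median GC of 52.5% and 50%, and the read shares without Hoxb4 (0.571% and 0.363%) and without Hoxb4, Fam83f and Gpr19 (0.313% and 0.291%) stand in the text. The cause of these shifts was not tested. PAR-CLIP values rest on 1 library per genotype, and groups under 5 reads are not listed.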
